A study of Rattus norvegicus with 16 samples.

Results

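The insulin-like growth factor (IGF) axis was examined as 10 genes chosen by name from the deposited count table of 23285 genes: the ligands Igf1 and Igf2, the receptor Igf1r, the binding proteins Igfbp2, Igfbp3, Igfbp4, Igfbp5 and Igfbp6, and the proteases Pappa and Pappa2. Of the 10, 9 were listed under these symbols, and Pappa was listed as Pappa1, which RefSeq gives as its synonym. IGFs are secreted growth factors that act through the receptor tyrosine kinase Igf1r, and in tendon Igf1 is known to promote fibroblast growth and collagen synthesis. Most extracellular IGF is held by binding proteins, which lengthen its life and limit its access to the receptor. Pappalysins are secreted metalloproteases that cut binding proteins and release the ligand: Pappa is best known for cutting Igfbp4, and Pappa2 for cutting Igfbp3 and Igfbp5.

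The series holds 16 libraries of total RNA from Sprague Dawley rats, 4 per tendon, from 2 hindlimb tendons (Achilles and patellar) and 2 forelimb tendons (forepaw flexor and supraspinatus, which lies at the shoulder). The series compared each tendon with each of the others. All libraries share the strain, and the sources used here give no age, sex or treatment. The labels number the libraries of each tendon Rat 1 to 4. Whether libraries of 1 tendon stem from different animals is not stated further, so p-values measure only the spread between these samples, which may be technical. Depth was 63397591 to 102491699 counts per library, and a floor of 3 counts equalled 0.0266 to 0.0485 CPM (counts per 1e6 counts). Levels are CPM scaled by the trimmed mean of M-values (TMM) and are given as mean ± SD over 4 libraries. Differences are log2 fold changes ± SE of edgeR's quasi-likelihood test, fitted to all 16 libraries and adjusted over 16948 genes.

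The tendon fibroblast markers Scx, Tnmd and Mkx were detected in every tendon, with mean levels of 19.4 to 37.1, 274.5 to 764.9 and 21.3 to 34.4 CPM. Within the Achilles, Scx ran from 5.67 to 86.4 CPM. Fibroblast markers, 10 genes summed, took 9.87 to 16.1% of the scaled counts in the Achilles and 7.5 to 15.4% in the patellar libraries. They took 5.53 to 7.7% in the flexor and 5.41 to 10.2% in the supraspinatus libraries. Col1a1 had the highest mean of the 10 in every tendon, at 22730 CPM in the flexor and 41690 to 85700 CPM in the others. Dcn went the other way, at 14840 CPM in the flexor and 4175 to 8046 CPM in the others. By the test, 5 of the 10 were higher in the forelimb than in the hindlimb and 2 lower. Skeletal muscle markers, 14 genes summed, took 12.6 to 23.9% of the scaled counts in the supraspinatus libraries and 1.6 to 5.97% in the flexor libraries. In the Achilles and patellar libraries they took at most 0.948%, apart from patellar 1 at 3.21%. Achilles 1 held 8154 CPM of 7 Schwann cell and nerve markers, against 1145 to 1382 CPM in the other Achilles libraries. Adipocyte markers, 10 genes summed, ran from 2942 to 11830 CPM in the hindlimb libraries and from 193.1 to 889.9 CPM in the forelimb libraries. Endothelial markers, 8 genes summed, ran from 1249 to 2561 CPM in the hindlimb and from 422.5 to 1317 CPM in the forelimb. In bulk RNA, fewer cells of a type and less RNA per cell cannot be told apart, and the part of these marker differences in the results on the IGF axis was not tested.

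All 10 members passed the filter on low counts, and 9 differed among the 4 tendons, where 75.6% of all genes tested did. Igfbp3 missed the threshold (adjusted p = 0.0508), which it passed with DESeq2 (0.0223), with limma-voom (0.035), on library totals (0.00658), under a stricter filter (0.0469) and without any of Achilles 2, 3 or 4, flexor 4, patellar 1 or supraspinatus 3 (0.00637 to 0.0483). Between the forepaw flexor and the patellar tendon 9 members were called, 4 higher in the flexor and 5 lower, beside 25.8% and 24.7% of all genes. Between the patellar and the supraspinatus tendon 9 were called, 7 higher in the patellar tendon and 2 lower, beside 28.8% and 27.5% of all genes. The median log2 fold change of the members in that pair was 1.20, and that of all genes was 0.05. Between the Achilles and the flexor 7 were called, 5 higher in the Achilles and 2 lower, beside 23.5% and 24.1% of all genes.

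The remaining pairs of tendons called fewer members. Between the flexor and the supraspinatus 6 were called, 4 higher in the flexor and 2 lower, beside 23.4% and 24.3% of all genes. Between the Achilles and the supraspinatus 3 were called, all higher in the Achilles, beside 25.4% higher and 24.7% lower among all genes. DESeq2 called 5 members in that pair, and scaling to library totals without TMM called 8. Between the Achilles and the patellar tendon 2 were called, 1 in each direction, beside 3.1% and 2.06% of all genes. The count in that pair was 1 in a fit of its own 8 libraries, and also without Achilles 2, 3 or 4 or without patellar 3 or 4. With the 2 forelimb tendons set against the 2 hindlimb tendons, 2 members were higher in the forelimb and 6 lower, beside 30.3% and 28.5% of all genes, with a median of -0.92 for the members and 0.02 for all genes. The limb comparison takes its SE and p-values from the spread between libraries of a tendon. With 2 tendons per limb, a limb difference cannot be told apart from a difference between the tendons chosen. The 7 comparisons share libraries, so their counts are not independent of each other.

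**Figure D1:**
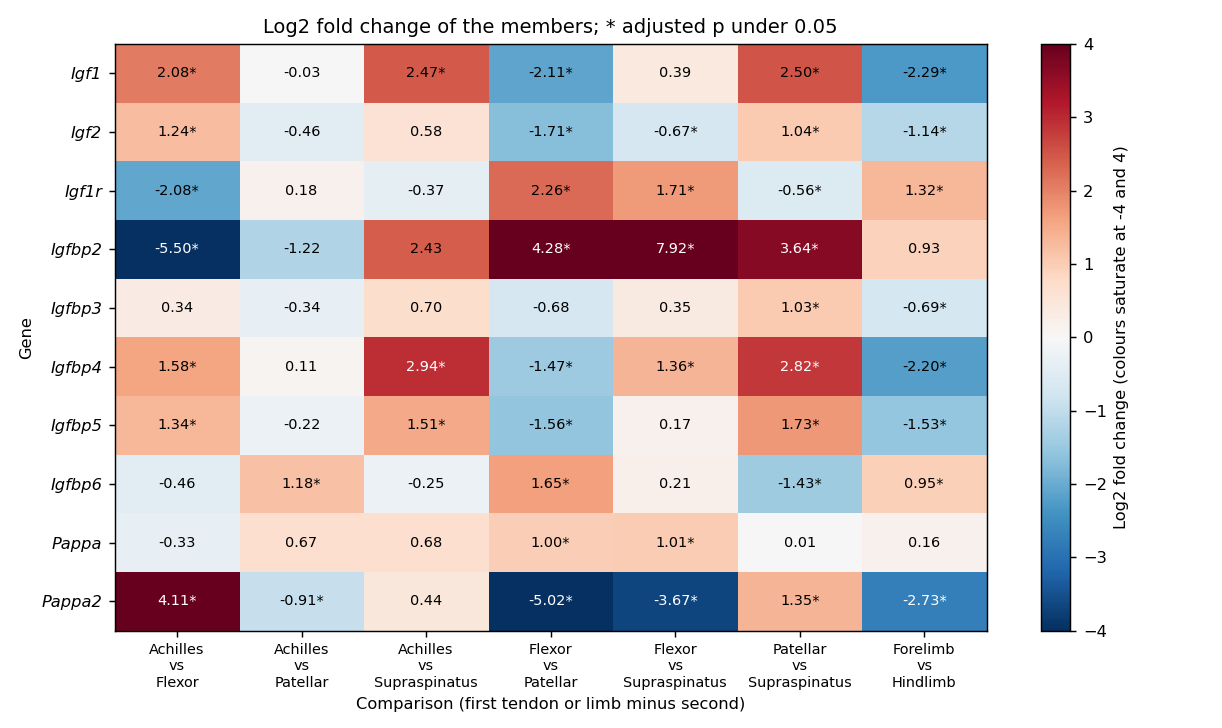
Log2 fold changes of the 10 members (rows) in the 6 pairs of tendons and in the forelimb tendons against the hindlimb tendons (columns), with the first of each pair minus the second, red for higher and blue for lower in the first, and an asterisk at an adjusted p under 0.05. Igf1, Igfbp4 and Igfbp5 share a pattern of red and blue across the pairs of a hindlimb with a forelimb tendon, with an asterisk in each. Igf2, Igfbp3 and Pappa2 have the same signs there with fewer asterisks. Igf1r shows the opposite sign in these pairs, most strongly against the flexor. The column for Achilles against patellar tendon holds 2 asterisks.

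TMM factors were 0.731 to 0.876 in the supraspinatus libraries and 1.01 to 1.16 in the others. Scaling to library totals moved the median of all genes from 0.05 to 0.47 for Achilles against supraspinatus, from -0.03 to 0.31 for flexor against supraspinatus, from 0.05 to 0.46 for patellar against supraspinatus and from 0.02 to -0.22 between the limbs. The share of called genes that were higher in the first of each pair went with it: from 50.7 to 78.7%, from 49 to 78.3%, from 51.1 to 77% and from 51.5 to 31.1% for these comparisons.

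Igf1 (ENSRNOG00000004517), the main IGF ligand after birth, was higher in both hindlimb tendons than in both forelimb tendons. It measured 532.3, 420.1, 473.5 and 362.1 CPM in the 4 Achilles libraries and 428.7, 486.9, 463.9 and 447.9 CPM in the 4 patellar libraries. It measured 89.26, 101.5, 103.1 and 128.7 CPM in the flexor libraries and 77.98, 93.36, 91.51 and 60.19 CPM in the supraspinatus libraries. The lowest hindlimb library was well above the highest forelimb library, and the libraries overlapped within each limb. The Achilles mean of 447 ± 72.9 CPM and the patellar mean of 457 ± 24.7 CPM differed by -0.03 ± 0.15 (adjusted p = 0.929). Achilles exceeded flexor by 2.08 ± 0.16 (adjusted p = 4.78e-07) and supraspinatus by 2.47 ± 0.16 (adjusted p = 3.45e-07). The flexor mean of 106 ± 16.6 CPM and the supraspinatus mean of 80.8 ± 15.3 CPM differed by 0.39 ± 0.15, which did not pass the test (adjusted p = 0.0509). That difference passed without supraspinatus 2 (adjusted p = 0.0355), without supraspinatus 3 (0.0419), without Achilles 1 or 4 (0.0414 each), with DESeq2 (0.033), with limma-voom (0.0354), in a fit of those tendons alone (0.0491) and on library totals (0.00585).

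**Figure D2:**
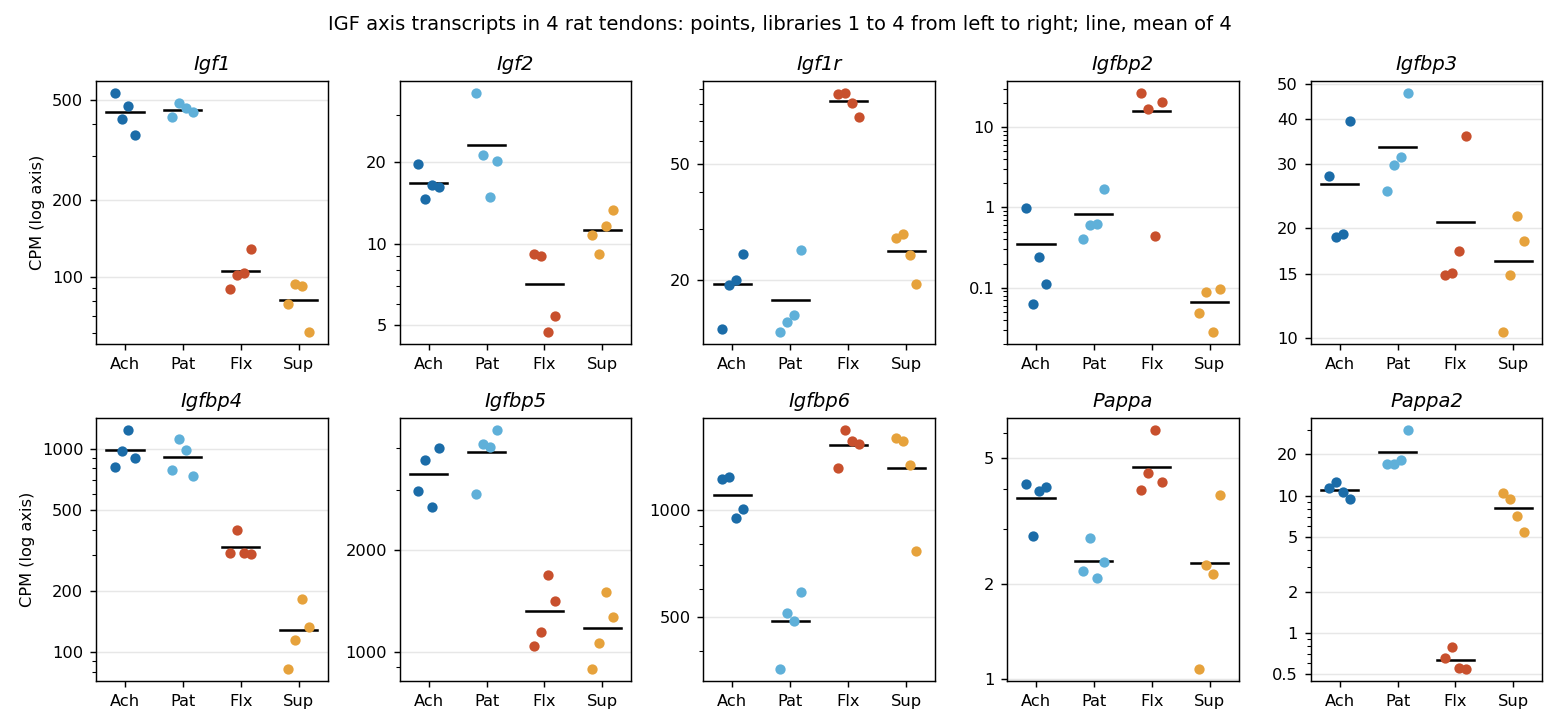
CPM of each member (log axes, each panel on its own range) in the Achilles (Ach), patellar (Pat), flexor (Flx) and supraspinatus (Sup) tendon, with 1 point per library and a line at the mean of 4. Igf1, Igfbp4 and Igfbp5 sit higher in both hindlimb tendons, Igf1r is highest in the flexor, Pappa2 is lowest there at 0.546 to 0.786 CPM, and Igfbp2 in flexor 3 lies far below the other flexor libraries.

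Igf1 is known to be made by macrophages and by fat in other tissues, so markers of both are given beside it. Macrophage markers, 9 genes summed, ran from 1032 to 2153 CPM in the hindlimb libraries and from 784.4 to 2190 CPM in the forelimb libraries, which overlapped. Lyz2 had the highest level of the 9 in every tendon. By the test, 2 of the 9 were lower in the forelimb and 0 higher. Adgre1 stood at 13.7 to 40.3 CPM in the hindlimb libraries and 3.14 to 9.98 CPM in the forelimb libraries, and Cd68 at 30.9 to 64.7 and 14.2 to 33.5 CPM. Igf1 equalled 22 to 41.5% of that sum in the hindlimb libraries and 4.71 to 7.67% in the forelimb libraries. The adipocyte sum was higher in every hindlimb library than in every forelimb library, and 9 of the 10 genes were lower in the forelimb by the test and 0 higher. Igf1 equalled 4.12 to 12.3% of the adipocyte sum in the hindlimb and 12.8 to 42.3% in the forelimb. Among markers of the liver, the main source of Igf1 in blood, Ttr, Apoa1 and Apob were at most 0.301 CPM in every library. Alb stood at 3.65 to 18.2 CPM in the hindlimb libraries and at most 0.0605 CPM in the forelimb libraries, and Serpina1 at 1.21 to 61.2 CPM over all libraries. The sum of these 5 genes was 7.76 to 73.6 CPM in the hindlimb and 10.9 to 22.2 CPM in the forelimb.

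Igf2 (ENSRNOG00000020369), the imprinted ligand that is most active before birth, had its highest mean in the patellar tendon at 23.1 ± 9.10 CPM, followed by the Achilles at 16.8 ± 2.11, the supraspinatus at 11.2 ± 1.75 and the flexor at 7.08 ± 2.36. The patellar libraries measured 36.1, 21.3, 14.9 and 20.2 CPM, with patellar 1 highest. The flexor libraries measured 9.19, 9.01, 4.71 and 5.39 CPM, all below every hindlimb library. Igf2 was lower in the flexor than in the patellar tendon by -1.71 ± 0.27 (adjusted p = 0.000114) and lower than in the Achilles, where the difference Achilles minus flexor was 1.24 ± 0.26 (adjusted p = 0.00144). Patellar exceeded supraspinatus by 1.04 ± 0.26 (adjusted p = 0.00372). Neighbours in this order differed less. Achilles and patellar libraries overlapped (adjusted p = 0.305). Achilles against supraspinatus, 0.58 ± 0.26, did not pass (adjusted p = 0.0795), although no libraries overlapped, and it passed without patellar 1 (0.0409), in a fit of those tendons alone (0.0102) and on library totals (0.00527). Flexor against supraspinatus, -0.67 ± 0.26, passed (adjusted p = 0.0477) but not without any of Achilles 1 or 4, flexor 3 or 4, or supraspinatus 1, 3 or 4 (0.05 to 0.163), nor without the filter, with limma-voom, in a fit of those tendons alone or on library totals (0.0597 to 0.357).

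The sum of the endothelial markers had the same order of tendon means as Igf2. Not every single marker did: Vwf had means of 199.5 CPM in the Achilles and 198.8 CPM in the patellar tendon. Tek had means of 94.8 CPM in the flexor and 92.9 CPM in the supraspinatus. All 8 markers were lower in the forelimb than in the hindlimb by the test. Patellar 1, the highest library for Igf2, also had the highest endothelial sum, 2561 CPM. Within the other tendons the orders of the libraries differed: supraspinatus 1 had a lower sum than supraspinatus 2 (646 against 829.6 CPM) and more Igf2 (10.8 against 9.16 CPM). Igf2 equalled 0.948 to 1.67% of the endothelial sum over the 16 libraries, while its level ran from 4.71 to 36.1 CPM. By tendon that percentage was 1.01 to 1.3 in the Achilles, 1.04 to 1.36 in the flexor, 0.948 to 1.41 in the patellar and 0.982 to 1.67 in the supraspinatus libraries. Setting the ligands beside these sums was chosen after the values were seen.

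**Figure D3:**
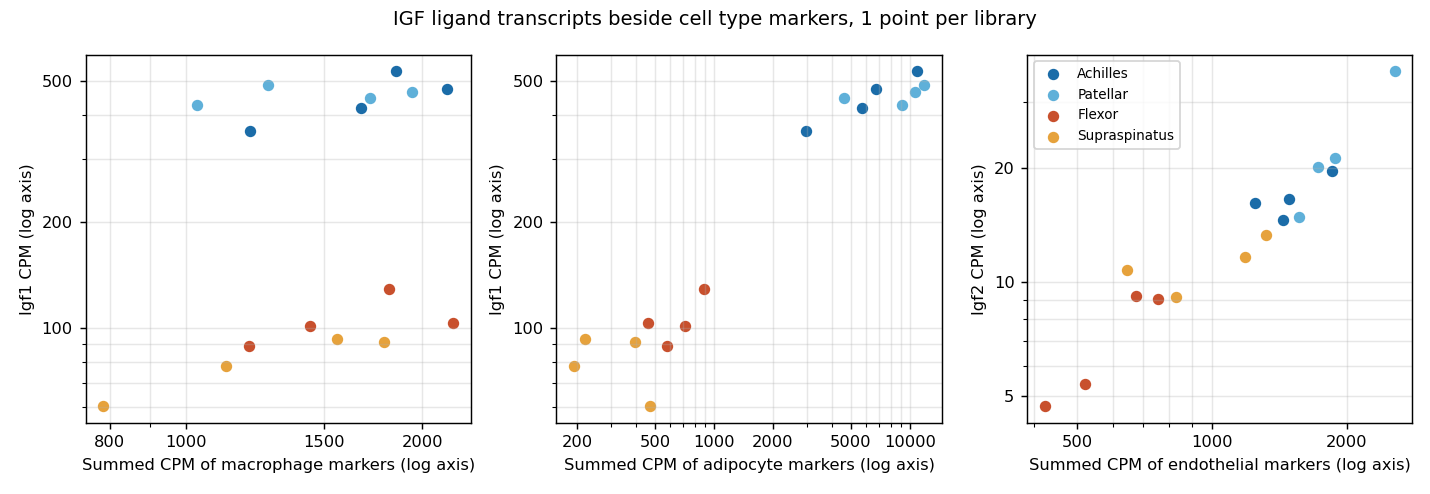
CPM of Igf1 against the summed CPM of macrophage markers (left) and adipocyte markers (centre), and of Igf2 against the summed CPM of endothelial markers (right), all on log axes, with 1 point per library coloured by tendon. Across overlapping macrophage sums, Igf1 lies at 362.1 to 532.3 CPM in hindlimb and at 60.2 to 128.7 CPM in forelimb libraries, and the Igf2 points lie along 1 band across the 4 tendons.

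The balance of the ligands within a library was compared as the ratio of Igf1 to Igf2 counts, which does not depend on how libraries are scaled. The ratio was 22.3 to 28.8 in the Achilles, 11.9 to 31.2 in the patellar, 9.71 to 23.9 in the flexor and 4.5 to 10.2 in the supraspinatus libraries. Only its difference between tendons can be read, since the transcripts differ in length. The supraspinatus libraries lay below all Achilles libraries, with a difference in mean log2 ratio of 1.89, and below all patellar libraries, with a difference of 1.54. Each gave an exact two-sided permutation p = 0.0286, the smallest that 4 against 4 libraries allow, and 0.0571 after adjustment over 12 tests of 2 ratios, which does not pass. The other 4 pairs overlapped in this ratio.

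Igf1r (ENSRNOG00000014187), the receptor that carries the signal of both ligands, was highest in the flexor, and the order of its means was the reverse of that of Igf2. It measured 86.7, 87.2, 80.9 and 72.2 CPM in the flexor libraries, a mean of 81.8 ± 6.97 CPM. The supraspinatus libraries measured 27.8, 28.8, 24.4 and 19.4 CPM, the Achilles libraries 13.7, 19.3, 20.1 and 24.5 CPM, and the patellar libraries 13.3, 14.4, 15.2 and 25.4 CPM. Every flexor library was above every other library, while the other 3 tendons overlapped. Flexor exceeded patellar by 2.26 ± 0.22 (adjusted p = 2.06e-06) and supraspinatus by 1.71 ± 0.21 (adjusted p = 2.23e-05), and Achilles minus flexor was -2.08 ± 0.21 (adjusted p = 4.6e-06). Patellar minus supraspinatus was -0.56 ± 0.21 (adjusted p = 0.0337). That call was lost without any of patellar 1, 2 or 3 or supraspinatus 1, 2 or 3 (adjusted p = 0.0518 to 0.0975), in a fit of those tendons alone (0.0624) and on library totals (-0.16, adjusted p = 0.519). Achilles minus supraspinatus was -0.37 ± 0.21 (adjusted p = 0.152) and turned to 0.03 on library totals.

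Igfbp4 (ENSRNOG00000010635), a binding protein that mostly restrains IGF action and is the best known substrate of Pappa, was higher in the hindlimb tendons and separated the forelimb tendons from each other. It measured 815.8, 975.3, 1241 and 896.1 CPM in the Achilles and 789.1, 1121, 984.3 and 735.2 CPM in the patellar libraries. It measured 305.7, 397.2, 306.8 and 304.9 CPM in the flexor and 82.4, 114.8, 182.2 and 133.3 CPM in the supraspinatus libraries. The order hindlimb, flexor, supraspinatus held with no overlap. Achilles and patellar means of 982 ± 185 and 907.5 ± 178 CPM differed by 0.11 ± 0.22 (adjusted p = 0.795). Achilles exceeded flexor by 1.58 ± 0.22 (adjusted p = 5.77e-05), and flexor exceeded supraspinatus by 1.36 ± 0.22 (adjusted p = 0.000177). Achilles exceeded supraspinatus by 2.94 ± 0.23 (adjusted p = 9.28e-07). Muscle markers took 12.6% or more of the scaled counts in every supraspinatus library, and their part in this difference was not tested.

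Igfbp5 (ENSRNOG00000017206), a binding protein that also binds matrix and is cut by Pappa2, divided the tendons by limb. It measured 2997, 3694, 2684 and 4018 CPM in the Achilles and 2925, 4106, 4042 and 4537 CPM in the patellar libraries. It measured 1042, 1143, 1684 and 1414 CPM in the flexor and 888.8, 1058, 1497 and 1268 CPM in the supraspinatus libraries. No hindlimb library overlapped a forelimb library. Achilles exceeded flexor by 1.34 ± 0.21 (adjusted p = 0.000149), and patellar exceeded supraspinatus by 1.73 ± 0.21 (adjusted p = 1.5e-05). The flexor and supraspinatus tendons overlapped, with a difference of 0.17 ± 0.21 (adjusted p = 0.542), as did the hindlimb tendons (-0.22 ± 0.21, adjusted p = 0.565).

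Since Igf1, Igfbp4 and Igfbp5 shared their order by limb and Igf1r was highest in the flexor, the 250 bases before their RefSeq start sites are shown, from the rat build GRCr8 and 5′ to 3′ on the strand of the gene. They lie at chr7:24172282-24172531 on the plus strand for Igf1, chr10:84491221-84491470 on the plus strand for Igfbp4, chr9:81914188-81914437 on the minus strand for Igfbp5 and chr1:130959747-130959996 on the plus strand for Igf1r. Capitals mark matches, on either strand, to TATAAA (the TATA box), CANNTG (the E-box, the site of basic helix-loop-helix factors such as scleraxis) and GGGCGG (the GC box).
Igf1: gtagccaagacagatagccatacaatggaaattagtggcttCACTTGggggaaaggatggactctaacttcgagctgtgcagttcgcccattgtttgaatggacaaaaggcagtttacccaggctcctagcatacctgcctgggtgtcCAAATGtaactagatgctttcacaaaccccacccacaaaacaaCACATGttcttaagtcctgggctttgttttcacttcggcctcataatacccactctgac
Igfbp4: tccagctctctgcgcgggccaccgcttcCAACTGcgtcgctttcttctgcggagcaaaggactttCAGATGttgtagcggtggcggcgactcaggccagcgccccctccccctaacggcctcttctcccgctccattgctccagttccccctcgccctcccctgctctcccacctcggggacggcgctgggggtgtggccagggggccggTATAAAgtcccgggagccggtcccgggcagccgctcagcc
Igfbp5: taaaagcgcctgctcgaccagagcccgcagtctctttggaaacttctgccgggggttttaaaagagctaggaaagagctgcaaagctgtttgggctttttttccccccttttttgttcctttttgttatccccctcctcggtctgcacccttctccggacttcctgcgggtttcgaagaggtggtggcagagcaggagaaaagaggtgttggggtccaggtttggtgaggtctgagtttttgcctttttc
Igf1r: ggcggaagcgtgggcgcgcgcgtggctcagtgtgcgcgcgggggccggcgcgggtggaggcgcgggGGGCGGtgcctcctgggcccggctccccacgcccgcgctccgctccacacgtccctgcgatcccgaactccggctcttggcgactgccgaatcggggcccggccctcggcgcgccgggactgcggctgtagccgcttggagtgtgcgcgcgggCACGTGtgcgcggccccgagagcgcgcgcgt
The Igf1 stretch held 3 E-box letter matches, Igfbp4 held 2 and Igf1r held 1, while 65.5% of all 33469 RefSeq promoters hold at least 1. Igfbp4 held a TATAAA match 40 bases before its start, as 12.9% of promoters do somewhere in this window, and no other member's entry did. Igfbp5 held no match to these 3 motifs. Igf1r held a GGGCGG match, as 30.5% of promoters do. The G and C content was 46.8% for Igf1, 51.6% for Igfbp5, 68.8% for Igfbp4 and 79.6% for Igf1r, beside a median of 51.2% over all promoters. None of the 3 motifs was found in all of Igf1, Igfbp4 and Igfbp5. A letter match is a description and not a site, and a missing one says only that these letters are not in the window.

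Igfbp6 (ENSRNOG00000010977), a binding protein that prefers Igf2, was lowest in the patellar tendon. It measured 356.8, 511.3, 487.4 and 586.9 CPM there, below every library of the other 3 tendons. The Achilles libraries measured 1217, 1232, 949.8 and 1006 CPM, the flexor libraries 1308, 1676, 1562 and 1528 CPM, and the supraspinatus libraries 1587, 1554, 1332 and 765.1 CPM. Achilles exceeded patellar by 1.18 ± 0.21 (adjusted p = 0.00769), flexor exceeded patellar by 1.65 ± 0.21 (adjusted p = 2.46e-05), and patellar minus supraspinatus was -1.43 ± 0.21 (adjusted p = 6.53e-05). This was the only member that separated the hindlimb tendons from each other in the main test and in every fit without a library. Of 5 synovial lining and sheath markers, 4 were lower in the patellar tendon than in the Achilles, than in the flexor and than in the supraspinatus by the test, and 0 were higher. Their sum, most of it Prg4 and Tppp3, was 208.8 to 381.7 CPM in the patellar libraries and 1012 to 2384 CPM in the others. Htra4 had a mean of 4.57 CPM in the patellar tendon and 2.56 CPM in the supraspinatus. The part of that difference in the Igfbp6 result was not tested. Flexor libraries were all above the Achilles libraries, but the difference of -0.46 ± 0.21 did not pass (adjusted p = 0.0819). It passed without supraspinatus 4 (0.0179), in a fit of those tendons alone (0.0202) and with DESeq2 (0.0498). Achilles minus supraspinatus was -0.25 ± 0.21 (adjusted p = 0.338) and turned to 0.14 on library totals.

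Igfbp2 (ENSRNOG00000016957), a binding protein common in fetal tissue that also binds integrins, was highest in 3 flexor libraries and low in the other. The flexor libraries held 2828, 1681, 46 and 1979 counts, or 26.7, 16.9, 0.447 and 20.4 CPM. The patellar libraries held 33 to 132 counts, the Achilles libraries 6 to 111, and the supraspinatus libraries 2 to 7, which is near the floor of 3 counts. Flexor 3 therefore lay among the patellar libraries, between the lowest at 0.401 CPM and the next at 0.610 CPM. Flexor exceeded patellar by 4.28 ± 0.98 (adjusted p = 0.0023), and Achilles minus flexor was -5.50 ± 1.05 (adjusted p = 0.000663). Without flexor 3 the values were 4.67 (adjusted p = 0.00018) and -5.88 (adjusted p = 5.99e-05). Achilles 1, the library rich in nerve markers, held 111 counts against 6 to 24 in the other Achilles libraries, and without it Achilles minus flexor was -6.84 (adjusted p = 0.000358). The flexor mean was 16.1 ± 11.2 CPM and the supraspinatus mean 0.0658 ± 0.0329 CPM (adjusted p = 0.000133), and patellar against supraspinatus was called as well (adjusted p = 0.0151).

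With limma-voom, Igfbp2 kept its call between Achilles and flexor (adjusted p = 0.0366) and lost it for flexor against patellar (0.0653), flexor against supraspinatus (0.0505) and patellar against supraspinatus (0.35). The last, 3.64 ± 1.16 in the edgeR test, was also lost without patellar 4 (3.02, adjusted p = 0.0507). Achilles against supraspinatus was not called (adjusted p = 0.101) but passed without flexor 3 (0.0284), with DESeq2 (0.0195) and on library totals (0.044). Flexor 3 had the lowest muscle share of its tendon, 1.6% against 3.48 to 5.97%, and the lowest Schwann cell and nerve sum, 2478 against 3303 to 3960 CPM. The part of those differences in the Igfbp2 level was not tested. In RefSeq, Igfbp2 and Igfbp5 are next to each other in the genome, yet Igfbp5 stood at 1684 CPM in flexor 3, the highest of the flexor libraries.

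Igfbp3 (ENSRNOG00000061910), the main carrier of IGFs in blood, varied least between the tendons relative to its spread. Its means were 33.4 ± 9.49 CPM in the patellar tendon, 26.4 ± 9.67 in the Achilles, 20.8 ± 10.2 in the flexor and 16.3 ± 4.83 in the supraspinatus. The flexor libraries measured 14.9, 15.1, 17.3 and 36.0 CPM, so that flexor 4 stood alone. Neighbours in this order overlapped, and the only pair called was patellar against supraspinatus, 1.03 ± 0.33 (adjusted p = 0.0158), a call that was lost without patellar 4 (0.0607). The forelimb tendons were lower than the hindlimb tendons by -0.69 ± 0.23 (adjusted p = 0.0197). Without flexor 4, the test passed for Achilles against flexor (0.77, adjusted p = 0.0457), for flexor against patellar (-1.11, adjusted p = 0.00754) and for Achilles against supraspinatus (0.68, adjusted p = 0.0492). The last also passed on library totals (1.10, adjusted p = 0.00944).

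Pappa2 (ENSRNOG00000042860) was the member that set the flexor apart most clearly. It measured 0.661, 0.786, 0.554 and 0.546 CPM in the flexor libraries, from 53 to 78 counts each. It measured 11.4, 12.5, 10.6 and 9.44 CPM in the Achilles, 17.1, 17.1, 18.3 and 30.2 CPM in the patellar and 10.4, 9.41, 7.06 and 5.44 CPM in the supraspinatus libraries. No flexor library came within the range of another tendon. Flexor minus patellar was -5.02 ± 0.26 (adjusted p = 2.93e-08), a 32.4-fold difference, and flexor minus supraspinatus was -3.67 ± 0.25 (adjusted p = 2.09e-07). Patellar exceeded supraspinatus by 1.35 ± 0.22 (adjusted p = 0.000153), while Achilles and supraspinatus overlapped at 0.44 ± 0.22 (adjusted p = 0.11). The latter passed without supraspinatus 1 (0.0389) and on library totals (0.85, adjusted p = 0.0051). Achilles minus patellar was -0.91 ± 0.22 (adjusted p = 0.0298), with no overlap. That call was lost without any of Achilles 2, 3 or 4 or patellar 3 or 4 (adjusted p = 0.0566 to 0.0804) and in a fit of those tendons alone (0.0649).

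Pappa (ENSRNOG00000033527) was present at 1.08 to 6.17 CPM over all libraries and was highest in the flexor. The flexor libraries measured 3.97, 4.51, 6.17 and 4.20 CPM, a mean of 4.71 ± 0.994 CPM, and the patellar libraries measured 2.201, 2.81, 2.09 and 2.35 CPM. The Achilles libraries measured 4.14, 2.85, 3.94 and 4.06 CPM, and the supraspinatus libraries 1.08, 2.31, 2.15 and 3.84 CPM. Flexor exceeded patellar by 0.996 ± 0.287 (adjusted p = 0.00977) and supraspinatus by 1.01 ± 0.29 (adjusted p = 0.00947), with no overlap in either pair. No difference of the Achilles was called, from the flexor (-0.33 ± 0.28, adjusted p = 0.359), from the patellar tendon (0.67 ± 0.29, adjusted p = 0.187, with no overlap) or from the supraspinatus (0.68 ± 0.29, adjusted p = 0.0609). Achilles against supraspinatus passed without supraspinatus 4 (1.06, adjusted p = 0.00396), with limma-voom (0.0242), with DESeq2 (0.0389) and on library totals (0.00292). The limbs differed by 0.16 ± 0.20 (adjusted p = 0.524), which turned to -0.10 on library totals.

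The ratio of Pappa2 to Pappa counts ran from 0.0899 to 0.174 in the flexor libraries, from 2.32 to 4.39 in the Achilles, from 6.09 to 12.8 in the patellar and from 1.42 to 9.68 in the supraspinatus libraries. Pappa counts thus exceeded Pappa2 counts in the flexor libraries, and Pappa2 counts exceeded Pappa counts in all 12 others. As for the ligands, only the difference of the ratio between tendons can be read, and not which transcript was more abundant. The mean log2 ratio differed by 4.43 between Achilles and flexor, by -5.96 between flexor and patellar, by -4.75 between flexor and supraspinatus and by -1.53 between Achilles and patellar, with no overlap. Each of these had an exact two-sided permutation p = 0.0286 and an adjusted p = 0.0571. That p is the smallest that 4 against 4 libraries allow, however large the difference, so the test cannot grade these differences by size. Patellar against supraspinatus (exact permutation p = 0.114) and Achilles against supraspinatus (exact permutation p = 0.629) overlapped. A further ratio, Igfbp5 to Igfbp6, was chosen after the values were seen and carries no test. It spanned 7.73 to 8.29 in the patellar libraries, 2.46 to 4.00 in the Achilles, 0.682 to 1.08 in the flexor and 0.56 to 1.66 in the supraspinatus libraries.

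**Figure D4:**
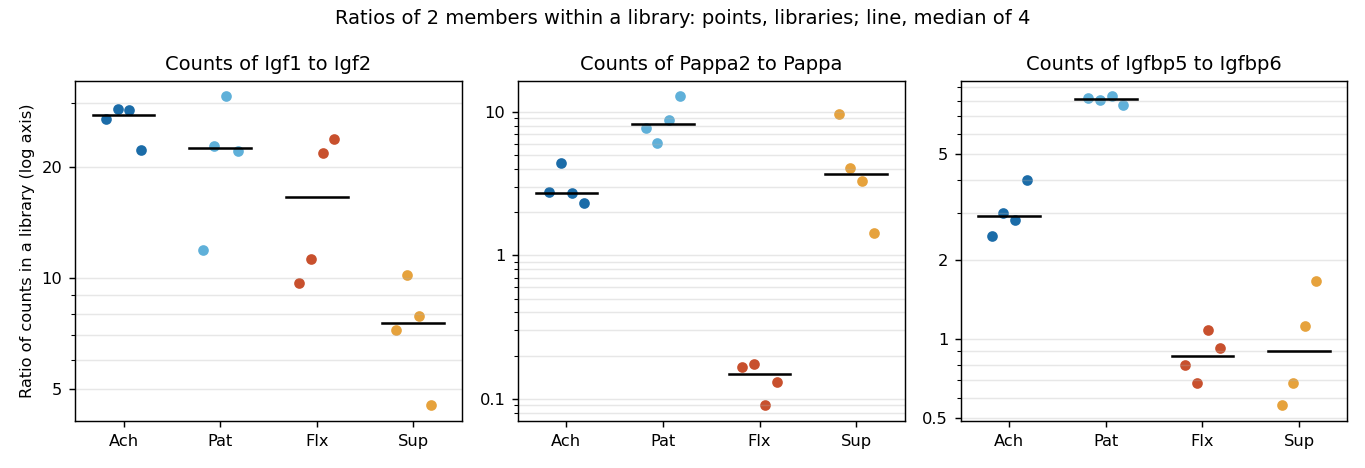
Ratios of the counts of Igf1 to Igf2, Pappa2 to Pappa and Igfbp5 to Igfbp6 within each library (log axes), by tendon, with 1 point per library and a line at the median of 4. The flexor libraries lie at 0.0899 to 0.174 for Pappa2 to Pappa, below all others, and the patellar libraries lie within 7.73 to 8.29 for Igfbp5 to Igfbp6.

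Of 54 other genes of the pathway that were listed by role, 52 were in the table and 49 passed the filter, and 43 of these differed among the tendons, where 75.6% of all genes did. In the flexor against the patellar tendon 19 were higher and 15 lower (all genes: 25.8% and 24.7%), and in the flexor against the supraspinatus 15 were higher and 17 lower (23.4% and 24.3%). In the Achilles against the flexor 9 were higher and 19 lower (23.5% and 24.1%), and in the Achilles against the supraspinatus 9 were higher and 16 lower (25.4% and 24.7%). In the patellar against the supraspinatus tendon 14 were higher and 15 lower (28.8% and 27.5%), and in the Achilles against the patellar 1 was higher and 3 were lower (3.1% and 2.06%). In the forelimb 20 were higher and 9 lower than in the hindlimb (30.3% and 28.5%). The median log2 fold changes of the list stayed between -0.19 and 0.12 over these 7 comparisons, beside -0.03 to 0.05 for all genes.

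Growth hormone drives Igf1 in many tissues through its receptor Ghr, the kinase Jak2 and Stat5. Ghr had a mean of 296 ± 84.2 CPM in the Achilles and 444 ± 201 CPM in the patellar tendon, against 94.6 ± 6.64 CPM in the flexor and 118 ± 18.6 CPM in the supraspinatus. No hindlimb library overlapped a forelimb library, as for Igf1, and Ghr in the Achilles exceeded flexor by 1.65 ± 0.28 (adjusted p = 0.000271) and supraspinatus by 1.33 ± 0.28 (adjusted p = 0.00116). Stat5a was lower in the forelimb by -0.59 ± 0.10 (adjusted p = 0.000153). Stat5b did not have the order of Igf1, with means of 88.5 CPM in the Achilles, 92.8 in the flexor, 109 in the patellar tendon and 114 in the supraspinatus. Socs2 and Cish, also listed for this input, did not differ among the tendons by the test (adjusted p = 0.287 and 0.169). Of the 6 genes listed, 1 was higher in the forelimb and 2 lower (all genes: 30.3% and 28.5%). Jak2 had another order, at 74.9 to 81.3 CPM in the flexor libraries and 13.9 to 45.3 CPM in the others, and Achilles minus flexor was -1.88 ± 0.25 (adjusted p = 3.08e-05).

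Irs2 and Foxo1, which act below the receptor and were named for the span of their tendon means, were highest in the flexor, as Igf1r was. Irs1, listed in the same role, had its lowest mean there, 29.4 CPM against 42.3 to 52.7 CPM in the other tendons. Of 26 genes tested in this role, 11 were higher and 7 lower in the flexor than in the patellar tendon (all genes: 25.8% and 24.7%). Against the supraspinatus 9 were higher and 10 lower (23.4% and 24.3%). In the Achilles 4 were higher and 11 lower than in the flexor (23.5% and 24.1%). Irs2, an adaptor of the insulin and IGF receptors, measured 94.3, 89.2, 170 and 128 CPM in the flexor libraries and 6.62 to 19.6 CPM in the other 12. Flexor exceeded patellar by 3.54 ± 0.28 (adjusted p = 4.15e-07) and supraspinatus by 3.18 ± 0.28 (adjusted p = 1.33e-06). Foxo1, a transcription factor that this pathway holds out of the nucleus, measured 47.3 to 58.5 CPM in the flexor and 6.57 to 25.8 CPM elsewhere, and flexor exceeded supraspinatus by 2.82 ± 0.20 (adjusted p = 2.25e-07). The early response gene Egr1 was also highest in the flexor, at 352.2 to 1012 CPM against 65.9 to 174.6 CPM in the other libraries. Its part in the Irs2 and Foxo1 levels was not tested.

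Receptors and proteins that bind or clear IGFs fell into different patterns. Igf2r, which takes up Igf2 for breakdown, was higher in the forelimb: its means were 121 ± 15.1 CPM in the flexor and 125 ± 9.90 CPM in the supraspinatus, against 68.9 ± 9.38 CPM in the Achilles and 66.6 ± 9.70 CPM in the patellar tendon. The limb difference of Igf2r was 0.86 ± 0.09 (adjusted p = 2.01e-06), opposite in sign to that of Igf2. Insr, the insulin receptor, was higher in the forelimb by 0.64 ± 0.12 (adjusted p = 0.000331), with its highest mean in the supraspinatus, but flexor and patellar overlapped (0.27 ± 0.17, adjusted p = 0.19), and patellar minus supraspinatus was not called on library totals (adjusted p = 0.202). Lrp1, a scavenger receptor that binds some IGF binding proteins, had its highest mean in the flexor, 1621 ± 303 CPM, above the patellar tendon by 1.33 ± 0.17 (adjusted p = 2.24e-05). Its Achilles and supraspinatus libraries overlapped (906 against 1036 CPM, adjusted p = 0.362), and patellar minus supraspinatus, -0.68 ± 0.17 (adjusted p = 0.00333), was not called on library totals (-0.29, adjusted p = 0.182). Igfbp7, a related protein with low affinity for IGFs, had means of 871 ± 105 CPM in the flexor and 91.2 ± 14.0 CPM in the supraspinatus, a difference of 3.26 ± 0.38 (adjusted p = 1.34e-05).

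Stanniocalcins inhibit pappalysins, and their genes did not share an order. Stc1 had its lowest mean in the flexor, 12.1 ± 1.43 CPM, below every other library, and flexor minus patellar was -1.09 ± 0.31 (adjusted p = 0.00811). Stc2 had its highest mean in the flexor, 9.22 ± 2.91 CPM, and flexor exceeded patellar by 1.22 ± 0.28 (adjusted p = 0.00198). Thus Stc1 had the sign of Pappa2 between these tendons and Stc2 that of Pappa. Among other proteases known to cut binding proteins, Htra1 and Htra3 were higher in the flexor than in the supraspinatus by 2.10 ± 0.52 (adjusted p = 0.00398) and 1.75 ± 0.51 (adjusted p = 0.0109). Adamts1 was lower in the flexor than in the patellar tendon by -1.19 ± 0.30 (adjusted p = 0.00449).

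**Figure D5:**
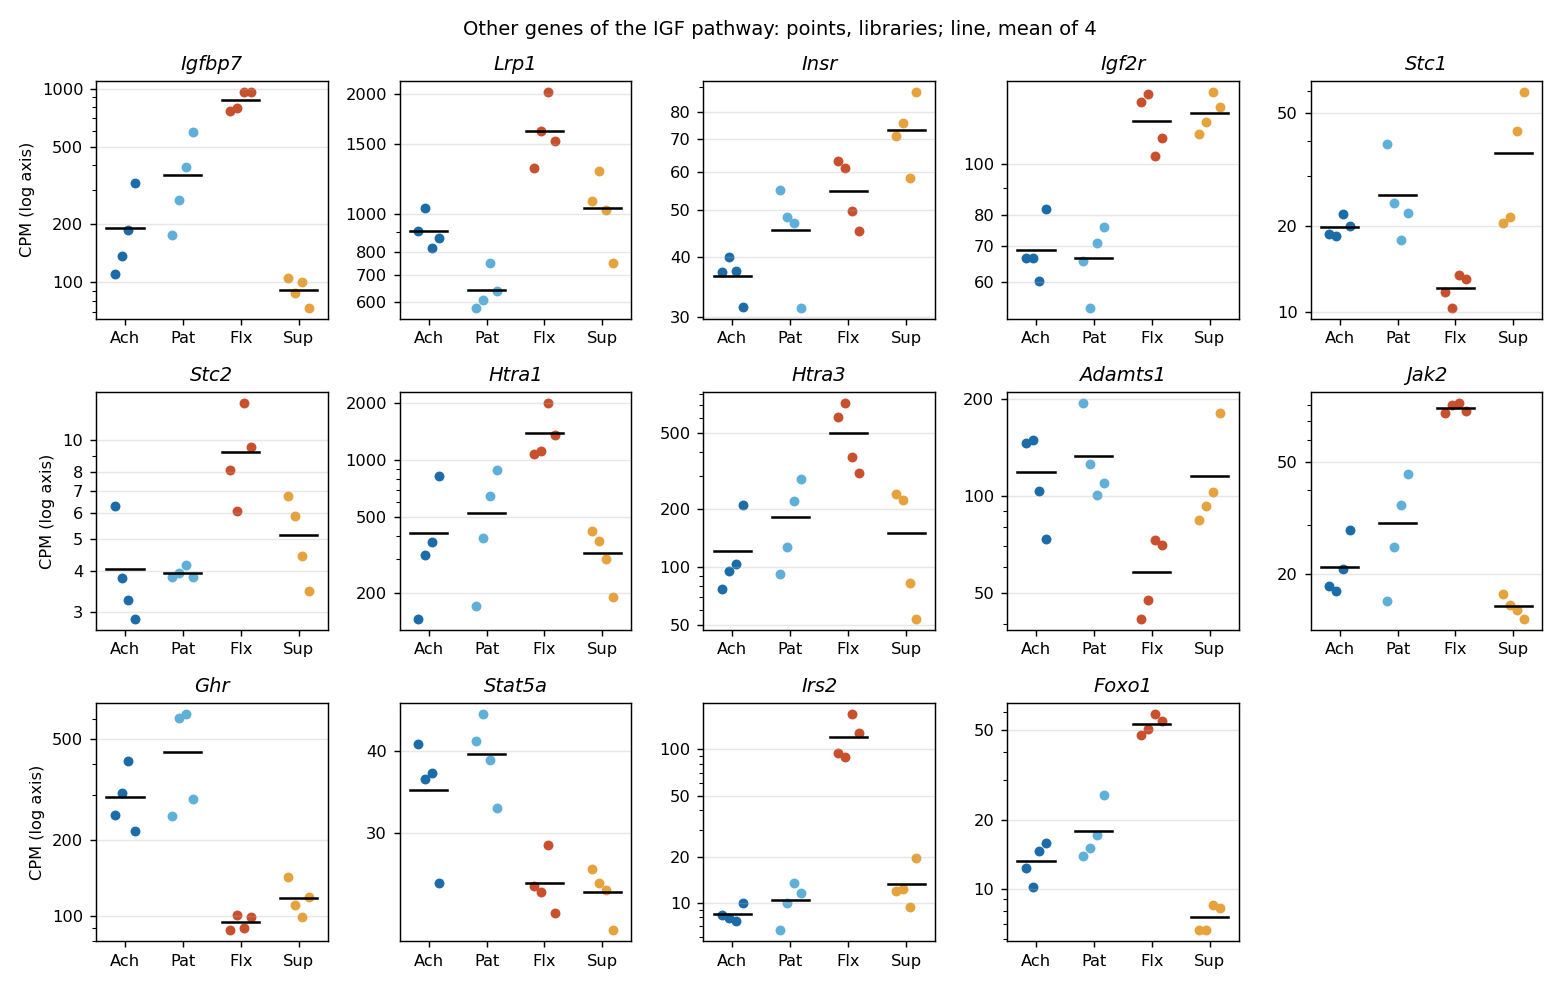
CPM of 14 other pathway genes (log axes, each panel on its own range) in the Achilles (Ach), patellar (Pat), flexor (Flx) and supraspinatus (Sup) tendon, with 1 point per library and a line at the mean of 4. Irs2, Foxo1 and Jak2 are highest in the flexor, with no library of another tendon in their flexor range, and Ghr is higher in the hindlimb tendons.

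Genes whose pattern over the 16 libraries was most like that of a ligand or pappalysin were found by the root mean square difference of centred log2 CPM, over 11060 genes. For Igf1 these were Srpx (0.24), Irf8 (0.28) and Gm2a (0.29), against a root mean square of 1.17 for Igf1 about its own mean. For Igf2, at 0.72 about its own mean, they were Tie1 (0.17), an endothelial receptor that is also in the endothelial list above, Myct1 (0.21) and Tm4sf1 (0.21). For Pappa, at 0.59, they were Cyp26b1 (0.32), Cirbp (0.37) and Hrct1 (0.37). For Pappa2, with a root mean square of 1.90 about its own mean, they were the collagen VI gene Col6a6 (0.78), periostin Postn (0.80) and Aldh1l2 (0.86). For Igfbp2, at 2.85 and examined after its values were seen, the closest were Kif19 (1.35), Sfrp5 (1.36) and Prdm8 (1.59). Sfrp5, a secreted Wnt antagonist, also had its lowest flexor level in flexor 3, at 23.1 CPM against 59.1 to 76.0 CPM. So did Kif19, at 3.365 CPM against 7.306 to 10.9 CPM, and Prdm8, at 5.194 CPM against 10.64 to 15.25 CPM. These genes were picked for their likeness to Igfbp2 over libraries that include flexor 3, so the shared low level is not a separate observation.

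The authors' deposited table of comparisons held all 10 members among its 12588 genes. In the authors' deposited table the log2 fold change of Pappa2 was 4.14 between Achilles and flexor and -0.92 between Achilles and patellar tendon, with a false discovery rate of 0.0448 for the latter. For Igfbp2 between Achilles and flexor the authors' deposited table gave -6.79, with a false discovery rate of 0.000358. The main fit gave -5.50 for that pair, and the fit without Achilles 1 gave -6.84. Between Achilles and supraspinatus the authors' deposited table gave 1.09 for Igfbp2. There the main fit gave 2.43, and the fit without Achilles 1 gave 1.08. The cause of these gaps from the main fit was not tested.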

How the data were processed

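RNA was purified with the miRNeasy Micro kit and DNase I, and libraries followed standard Illumina methods, per the labels' protocols. The authors deposited whole-number counts for each Ensembl gene. The submitters' processing notes name HISAT2, FastQC, edgeR and the rat build rn6; the sources used here name no counting tool, annotation release or strand setting, so overlapping or antisense genes may share reads. Per the file headers, a second table by the authors gives mean log2 CPM, log2 fold changes, p-values and false discovery rates for 6 pairs.

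Groups are the tendons named in the labels. Genes were filtered with filterByExpr (minimum count 10, minimum total 15), scaled by TMM and fitted with 1 coefficient per tendon (edgeR 4.0.16, R 4.3.3; 12 residual degrees of freedom). Benjamini-Hochberg adjustment was made over all genes tested in a comparison, and calls have an adjusted p under 0.05. Ratios had 0.5 added to each count and an exact permutation test (scipy 1.17.1). No libraries were duplicates: the lowest chi-square per degree of freedom between libraries of a tendon was 72.7. The fit was tested on simulated counts for Achilles against patellar tendon. It recovered 16% of 1.5-fold, 58% of 2-fold and 90% of 4-fold changes, so smaller differences in that pair can be missed. The exact test was checked on made-up values with full separation and with equal groups.

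The members and lists were chosen with earlier results of these data known. All members are named. Of the other pathway genes, up to 3 per role are named, by the span of tendon means, among those with an adjusted p under 0.05 among the tendons and a mean of at least 5 CPM in a tendon, with Igf2r, Stc1, Stc2 and Ghr always named; 1 gene that this rule names is not reported here. Irs1, Stat5b, Socs2 and Cish were added outside this rule, after their values were seen. The 3 genes most like Igf1, Igf2, Pappa and Pappa2 are named, with a prior count of 2 for log2 CPM. Igfbp2 was added after its values were seen, as were the single markers given beside members (such as Egr1, Alb, Adgre1, Cd68 and Htra4).

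The alternatives tried were library totals, size factors by the median of ratios, no filter, 1 CPM in 8 libraries, DESeq2 1.42.0, limma-voom (limma 3.58.1), a replicate block, the libraries of a pair alone and each library left out. Those for the pathway genes were chosen after seeing the data. Promoters are RefSeq's (GRCr8) and cover 9 members.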

Additional observations from a re-analysis of the deposited data

Results flagged for a closer look

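In 48 groups of 4 libraries, 5 values stood far from the other 3 of their tendon, judged by the gap to the nearest library over the range of the group. Chance alone gives about 1 such group in 20. Igf1r measured 25.4 CPM in patellar 4, against 13.3 to 15.2 CPM in the other patellar libraries. In the same library Pappa2 measured 30.2 CPM, against 17.1 to 18.3 CPM. Igfbp3 measured 36.0 CPM in flexor 4, against 14.9 to 17.3 CPM in the other flexor libraries. Igfbp4 measured 397.2 CPM in flexor 2, against 304.9 to 306.8 CPM. Pappa measured 2.85 CPM in Achilles 2, against 3.94 to 4.14 CPM.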

How the results depend on the processing

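Over all alternatives, 1802 of the values for single members kept their direction and their side of the threshold, 40 gained a call, 30 lost one and 19 changed sign, none of the last with an adjusted p under 0.05 in either fit. For Achilles against patellar tendon, 2 members were called, 1 in a fit of that pair alone and 1 to 2 without each library, beside 4 pathway genes, 0 without patellar 3 and 7 without patellar 1, and 1 each on library totals, without the filter and in the pair alone. All genes called in that pair numbered 874, 268 in the pair alone, 1977 with DESeq2, and 342 to 1415 without each library, with 1415 without patellar 1. For Achilles against supraspinatus, 3 members were called, 8 on library totals and 5 with DESeq2. Signs changed on library totals for Igf1r (0.031) and Igfbp6 (0.14) between Achilles and supraspinatus and for Pappa between the limbs (-0.10). Without each library, values ran from -0.125 to 0.059 for Igf1 and from -0.024 to 0.245 for Igfbp4 between Achilles and patellar tendon. They ran from -0.096 to 0.52 for Igfbp3 and from -0.021 to 0.303 for Igfbp5 between flexor and supraspinatus, and for Pappa from -0.021 to 0.273 between the limbs and from -0.196 to 0.39 between patellar and supraspinatus tendon. The cause of these changes was not tested. Of 120 alternative values of the ratio differences, 1 changed sign: Pappa2 to Pappa between Achilles and supraspinatus, from -0.32 to 0.14 without supraspinatus 1 (-0.78 to 0.14 over the libraries left out).

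With the replicate number of the labels as a replicate block, 10 members differed among the tendons, 10 were called between flexor and patellar tendon and 4 between Achilles and supraspinatus. The members gained were all Igfbp3. Of 24 same-numbered pairs of libraries, 9 deviated together with a correlation over 0.1 (-0.21 to 0.37, median 0.03). Pairs with other numbers had a median of -0.0095. The labels do not say whether a number marks an animal shared across tendons, so the main fit did not pair the samples. These correlations do not exclude a pairing. Depth limits Igfbp2 in the supraspinatus, at 2 to 7 counts a library, and 4 libraries per tendon limit the rest.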
